A study of Mus musculus with 16 samples.

Results

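Leukocyte-recruiting chemokines are small secreted proteins that draw white blood cells out of the blood into a tissue. The 10 genes described here are Ccl2, Ccl7, Ccl3, Ccl4, Cxcl1, Cxcl2, Ccl5, Cxcl9, Cxcl10 and Cxcl16, chosen by their gene symbols from 17410 genes in mouse liver RNA. All 10 were found. By the cells they are best known to attract, 4 are monocyte and macrophage chemokines (Ccl2, Ccl7, Ccl3, Ccl4), 2 are neutrophil chemokines (Cxcl1, Cxcl2) and 4 are T cell chemokines (Ccl5, Cxcl9, Cxcl10, Cxcl16).

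Chemokines act through receptors on the surface of leukocytes. The CCL2 and CCL7 proteins bind CCR2 on inflammatory monocytes, and CCL3 binds CCR1. CXCL1 and CXCL2 bind CXCR2 on neutrophils, CXCL9 and CXCL10 bind CXCR3 on activated T and NK cells, and CXCL16 binds CXCR6. In steatohepatitis they are made by hepatocytes, Kupffer cells, stellate cells and endothelium, and many are induced through NF-kB or, for Cxcl9 and Cxcl10, by interferon gamma.

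The 16 livers formed 4 groups of 4, from 2 experiments. Both concern ChREBPα, 1 isoform of a transcription factor, encoded by Mlxipl, that responds to carbohydrate. In the deletion experiment both groups carried floxed Chrebpα alleles (Chrebpα-flox/flox) and received an adeno-associated virus with the TBG promoter, which is active in hepatocytes. LKO_NASH (livers 21 to 24) received AAV-TBG-Cre and WT_NASH (livers 17 to 20) AAV-TBG-GFP, and both ate a NASH diet of 40% fat and 20% fructose by calories with 2% cholesterol for 12 weeks. For the overexpression experiment, wildtype mice, 2 months old, received adenovirus for Chrebpα (Ad_Chrebpa_HFLMCD, livers 13 to 16) or for GFP (Ad_GFP_HFLMCD, livers 9 to 12). All of these ate an HFLMCD diet, with 45% of calories from fat, no choline and 0.1% added methionine, for 3 weeks and had the virus for the last 1 week. Age is not given for the NASH diet mice. Values below are in liver-number order within a group.

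The libraries held 21254937 to 40327264 expected counts. Mlxipl, counted over all its isoforms, was at 47.5 to 100 FPKM (fragment counts scaled to gene length and library size) in the livers labelled LKO_NASH and 50.1 to 80.4 in WT_NASH (log2 fold change 0.05, edgeR adjusted p = 0.916). It was at 44.7 to 47.8 FPKM in the livers labelled Ad_Chrebpa_HFLMCD and 39.0 to 48.5 in Ad_GFP_HFLMCD (log2 fold change 0.15, edgeR adjusted p = 0.241). The total of this gene is thus no check of the labels in either experiment, and the directions below rest on the labels alone. The sources used here give neither the deleted stretch nor whether transcripts of the virus were counted under Mlxipl. Summed FPKM of 8 hepatocyte markers was 41800 to 66800 over the 16 livers, so the defining markers of liver were present in all of them. A change in whole-liver RNA cannot separate fewer cells of a type from less RNA per cell.

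The promoters of 4 CXC chemokines on chromosome 5 are shown because Cxcl1 and the T cell chemokines of this family had log2 fold changes of opposite sign in the deletion experiment. Each is the 250 bases before the transcription start (RefSeq, GRCm38.p6, read 5′ to 3′ on the gene's strand). Capitals mark matches, on either strand, to the NF-kB letters (GGG, any 3 bases, TTCC) or to those of the interferon-stimulated response element (GAAA, any 2 bases, GAAA).
Cxcl1 (chr5:90890995-90891244, plus strand): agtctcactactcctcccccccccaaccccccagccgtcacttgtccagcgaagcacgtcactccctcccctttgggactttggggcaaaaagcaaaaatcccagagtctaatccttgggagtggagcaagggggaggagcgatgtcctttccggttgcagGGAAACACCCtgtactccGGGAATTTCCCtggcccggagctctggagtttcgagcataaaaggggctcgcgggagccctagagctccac
Cxcl2 (chr5:90903649-90903898, plus strand): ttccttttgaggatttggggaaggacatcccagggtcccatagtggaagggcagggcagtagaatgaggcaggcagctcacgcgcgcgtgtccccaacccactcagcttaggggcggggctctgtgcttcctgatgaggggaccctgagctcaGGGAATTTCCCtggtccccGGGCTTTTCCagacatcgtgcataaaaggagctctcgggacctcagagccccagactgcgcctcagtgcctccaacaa
Cxcl10 (chr5:92348890-92349139, minus strand): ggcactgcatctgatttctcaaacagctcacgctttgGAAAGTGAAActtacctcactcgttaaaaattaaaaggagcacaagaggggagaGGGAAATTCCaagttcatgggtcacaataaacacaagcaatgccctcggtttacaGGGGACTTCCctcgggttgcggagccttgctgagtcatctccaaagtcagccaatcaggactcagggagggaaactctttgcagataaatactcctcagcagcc
Cxcl9 (chr5:92328080-92328329, minus strand): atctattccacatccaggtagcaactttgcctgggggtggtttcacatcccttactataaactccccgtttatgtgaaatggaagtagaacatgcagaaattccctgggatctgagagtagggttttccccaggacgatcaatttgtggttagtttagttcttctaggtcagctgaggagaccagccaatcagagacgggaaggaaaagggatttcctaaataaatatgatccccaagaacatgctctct
Cxcl1 and Cxcl2 both hold the run GGGAATTTCCC, in which matches on both strands overlap, 71 to 61 and 97 to 87 bases before the start. Cxcl10 holds 2 NF-kB matches and, 213 to 204 bases before the start, the interferon element match GAAAGTGAAA. The Cxcl9 window holds neither set of letters, nor does that of Ccl3, the only other member with a promoter in the table. Of 32851 promoter windows of this length, 4.65% hold the NF-kB letters and 2.98% the interferon element letters. A match describes the letters and is not evidence of binding in these livers. Only these exact letters were searched, so a window without a match is not shown to lack such elements.

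All 10 chemokines had lower group means in livers on the NASH diet than in livers on the HFLMCD diet. In the control groups Ccl2 was at 0.18, 0.24, 0.82 and 0.80 FPKM in WT_NASH, against 14.80, 19.59, 16.79 and 18.37 in Ad_GFP_HFLMCD. Cxcl10 was at 0.33, 1.53, 2.29 and 1.76 FPKM in WT_NASH, against 27.17, 20.97, 25.43 and 28.07 in Ad_GFP_HFLMCD. The same separation without overlap held for each member between these groups, as it did for 68.9% of 13488 genes tested, which were lower in WT_NASH on the FPKM scale.

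By edgeR, which rescales libraries to a common centre, 10 of 10 members were lower in WT_NASH than in Ad_GFP_HFLMCD at an adjusted p below 0.05, against 30.9% of all genes lower and 28.2% higher. The members' median log2 fold change was -3.35, beside -0.01 over all genes tested. The monocyte chemokines had log2 fold changes of -5.42 for Ccl7, -4.35 for Ccl2, -3.72 for Ccl3 and -3.24 for Ccl4, and the first 3 of these stood furthest apart among the members. Cxcl1 had the smallest, at -0.97 (SE 0.29, edgeR adjusted p = 0.015), and its neighbour Cxcl2 was at -3.45 (SE 0.53, edgeR adjusted p = 0.000355). The T cell chemokines ranged from -1.56 for Cxcl9 and -1.82 for Cxcl16 to -2.69 for Ccl5 and -3.46 for Cxcl10. The median over all genes was -0.61 with log2(FPKM + 0.1), where 7.1% of the calls were higher, against 47.7% with edgeR, and Cxcl1 was at -1.71 on that scale. Summed neutrophil markers were 3.09 to 7.13 FPKM in WT_NASH and 23.2 to 56.1 in Ad_GFP_HFLMCD, T and NK markers 2.34 to 3.03 and 10.9 to 23.1, and macrophage markers 105 to 221 and 789 to 1350. Their part in the chemokine levels was not tested. Diet, its length, the virus, the floxed allele and the experiment differ together between these groups and cannot be told apart.

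**Figure D1:**
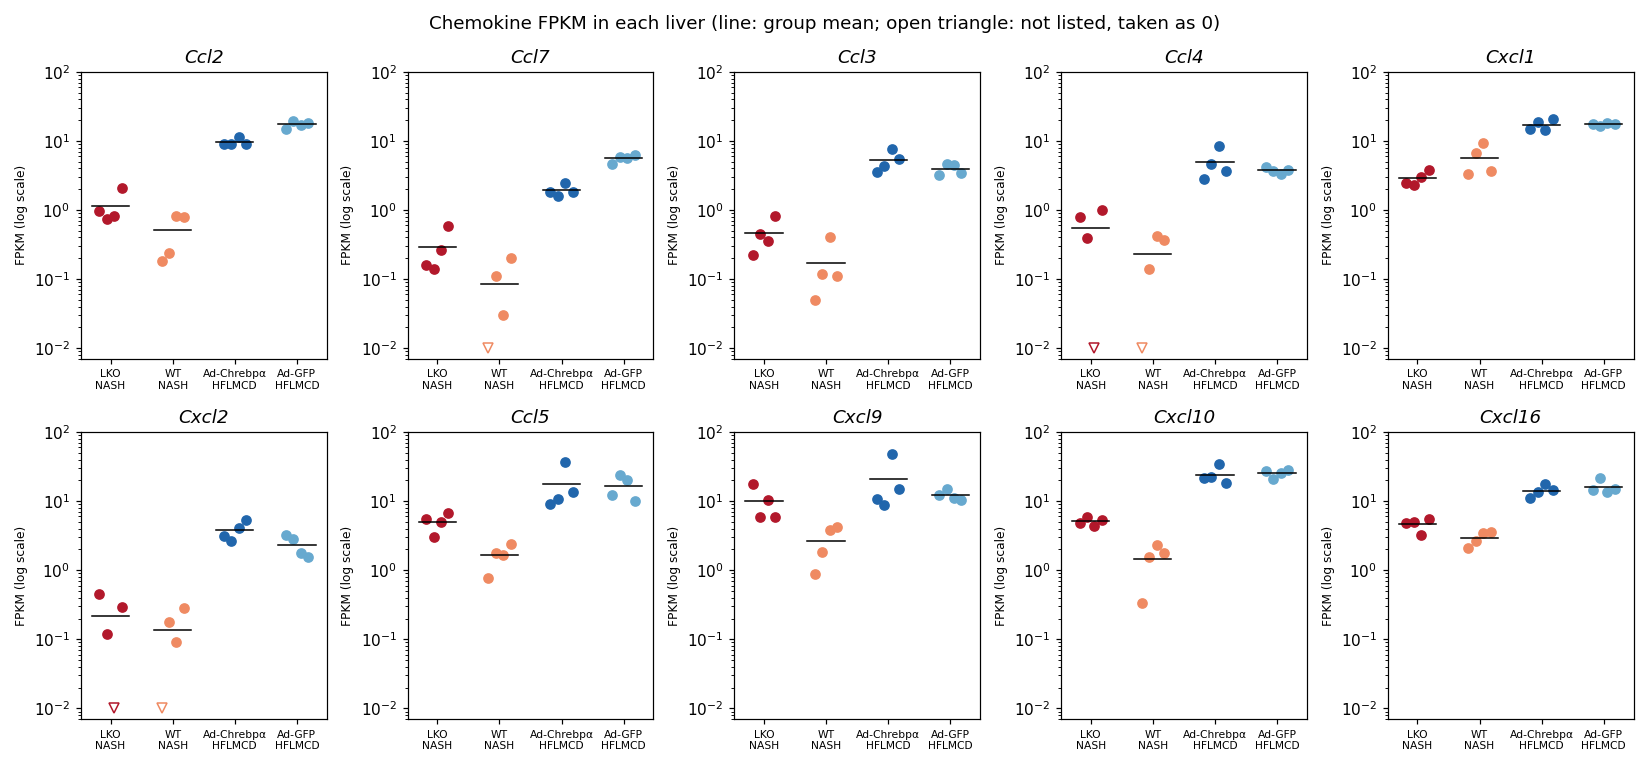
FPKM of each chemokine (log axis) in each liver of the 4 groups, with a line at the group mean and an open triangle at the bottom for a liver in which the gene was not listed. The HFLMCD groups lie above the NASH groups for every gene except that LKO_NASH reaches into the HFLMCD range for Cxcl9.

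The order of the 4 groups differed between members. Ccl2 and Ccl7 were ordered Ad_GFP_HFLMCD, Ad_Chrebpa_HFLMCD, LKO_NASH, WT_NASH, with overlap between the NASH groups alone. For Ccl3, Ccl4, Cxcl1, Cxcl2, Ccl5, Cxcl10 and Cxcl16 the HFLMCD groups overlapped each other and lay above both NASH groups. Cxcl1 was the one member whose mean was lower in LKO_NASH than in WT_NASH. Cxcl9 was the one member for which a NASH group overlapped an HFLMCD group: LKO_NASH reached 17.51 FPKM in liver 21, and Ad_GFP_HFLMCD spanned 10.39 to 15.10.

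In the livers labelled LKO_NASH, T cell chemokines had higher FPKM than in WT_NASH and the neutrophil chemokine Cxcl1 had a lower mean, but edgeR called no gene of 12786, so no member passed its test (0% called). At an unadjusted p below 0.05, edgeR had 985 genes higher, 7.7%, and 752 lower, 5.88%. Only 6 of the 10 members passed the filter on low counts. They were Ccl2, Cxcl1, Ccl5, Cxcl9, Cxcl10 and Cxcl16, with a median log2 fold change of 1.21 beside 0.01 over all genes tested.

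Ccl5, which attracts T cells, was at 5.48, 3.01, 4.94 and 6.69 FPKM in LKO_NASH, against 0.78, 1.78, 1.66 and 2.38 in WT_NASH. Every LKO_NASH liver lay above every WT_NASH liver. The log2 fold change was 1.46 (95% interval 0.71 to 2.20, edgeR adjusted p = 0.305).
Cxcl10 was at 4.76, 5.98, 4.44 and 5.41 FPKM in LKO_NASH, against 0.33, 1.53, 2.29 and 1.76 in WT_NASH. The groups did not overlap, and the LKO_NASH livers were close to each other (5.15 ± 0.686, SD, n = 4). The log2 fold change was 1.65 (95% interval 0.73 to 2.56, edgeR adjusted p = 0.305).
Cxcl9, another CXCR3 ligand, was at 17.51, 5.98, 10.49 and 5.85 FPKM in LKO_NASH, against 0.88, 1.85, 3.80 and 4.22 in WT_NASH. The groups did not overlap, and liver 21 was the highest. The log2 fold change was 1.77 (95% interval 0.62 to 2.92, edgeR adjusted p = 0.310).
Cxcl16, a chemokine that is also made as a membrane-bound protein, was at 4.77, 4.94, 3.27 and 5.43 FPKM in LKO_NASH, against 2.13, 2.61, 3.47 and 3.60 in WT_NASH. Liver 23 fell within the WT_NASH range. Its log2 fold change was 0.49 (95% interval 0.09 to 0.90, edgeR adjusted p = 0.356).
Groups without overlap, higher in LKO_NASH, were thus seen for 3 of 4 T cell chemokines, beside 6.93% of all genes tested. Separation on the FPKM scale was lopsided over all genes tested, with 886 higher in LKO_NASH and 86 lower. The median log2 fold change over all genes was 0.15 on log2(FPKM + 0.1), against 0.01 with edgeR.

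The call on these genes depended on the tool. DESeq2 on the same counts called Ccl5 (adjusted p = 0.00987), Cxcl10 (adjusted p = 0.0138) and Cxcl9 (adjusted p = 0.0275) among 90 genes higher, 0.704% of those tested, and 68 lower. With all 16 libraries in 1 edgeR fit, Cxcl10 alone among the members passed (1.62, adjusted p = 0.0362), and 0.622% of genes were called higher. Liver 21 decided the number of calls, since without it edgeR called 166 genes higher and 254 lower. None of those was a member, with adjusted p = 0.0626 for both Ccl5 and Cxcl10.

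No marker of other cell types was called by edgeR, but some summed levels differed in range. Summed over 12 T and NK cell markers, FPKM was 3.91 to 5.26 in LKO_NASH and 2.34 to 3.03 in WT_NASH, without overlap, and 5 of the 12 could be tested, 4 of them positive and 0 called. No marker of that list was at 0 in all livers of a group. Over 11 macrophage and Kupffer cell markers the sums were 149 to 351 in LKO_NASH and 105 to 221 in WT_NASH, and over 5 B and plasma cell markers 4.01 to 9.04 and 2.96 to 4.23, both with overlap. Their part in the chemokine differences was not tested.

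Cxcl1, a CXCR2 ligand with a higher FPKM than Cxcl2 in every liver, was at 2.47, 2.31, 3.04 and 3.78 FPKM in LKO_NASH, against 3.33, 6.65, 9.40 and 3.61 in WT_NASH. The groups overlapped at livers 24, 17 and 20. The log2 fold change was -1.15 (95% interval -1.91 to -0.38, edgeR adjusted p = 0.316), and DESeq2 gave an adjusted p of 0.071. Cxcl2 was at 0.46, 0.12, 0 and 0.29 FPKM in LKO_NASH, against 0, 0.18, 0.09 and 0.28 in WT_NASH, and was not tested. Neutrophil markers, 9 of 10 of which were in the tables, summed to 2.27 to 5.96 FPKM in LKO_NASH and 3.09 to 7.13 in WT_NASH. Camp was at 0 in all LKO_NASH livers, and in WT_NASH it had only 2 counts, all in liver 18.

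The monocyte and macrophage chemokines rested on few counts in the NASH livers. Ccl2 was at 0.98, 0.74, 0.83 and 2.06 FPKM in LKO_NASH, against 0.18, 0.24, 0.82 and 0.80 in WT_NASH, from 14 to 52 and 4 to 26 counts per liver. The groups overlapped, and the log2 fold change was 0.96 (95% interval -0.16 to 2.07, edgeR adjusted p = 0.411), or 0.56 without liver 24.
Ccl7 was at 0.16, 0.14, 0.26 and 0.59 FPKM in LKO_NASH, against 0, 0.11, 0.03 and 0.20 in WT_NASH.
Ccl3 was at 0.22, 0.45, 0.36 and 0.83 FPKM in LKO_NASH, against 0.05, 0.12, 0.41 and 0.11 in WT_NASH.
Ccl4 was at 0.80, 0.39, 0 and 1.01 FPKM in LKO_NASH, against 0, 0.14, 0.42 and 0.37 in WT_NASH.
Group means of all 3 were higher in LKO_NASH and the groups overlapped. With no filter, edgeR gave log2 fold changes of 1.60 for Ccl7, 1.15 for Ccl3, 1.02 for Ccl4 and 0.55 for Cxcl2, with adjusted p from 0.451 to 0.785.

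**Figure D2:**
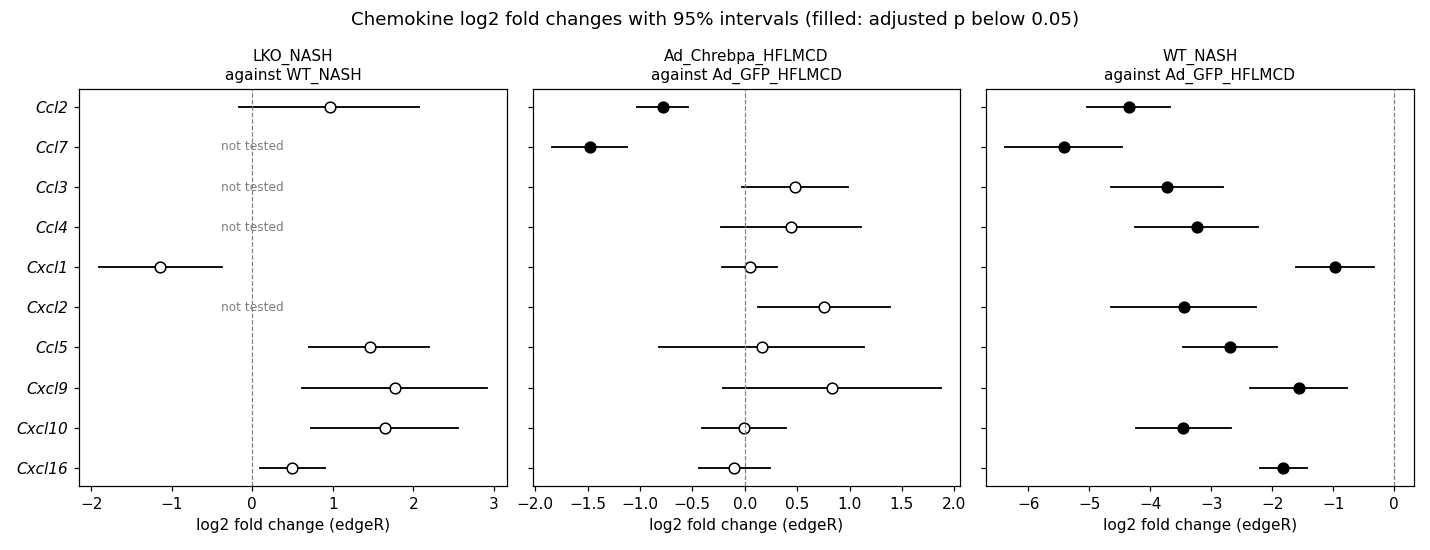
edgeR log2 fold changes of each chemokine (x axes, each panel with its own range) with 95% intervals in the 3 comparisons, filled where the adjusted p was below 0.05. No member was called in the deletion experiment, Ccl2 at -0.78 and Ccl7 at -1.48 were called in the overexpression experiment, and all 10 were called between the control groups.

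The make-up of the chemokine signal differed between the NASH groups. T cell chemokines made up 73.2% to 86.5% of the summed FPKM of the 10 genes in LKO_NASH and 50.1% to 69.0% in WT_NASH. Neutrophil chemokines made up 7.79% to 12.7% in LKO_NASH and 22.4% to 44.9% in WT_NASH. Neither share overlapped between the groups, but shares of a whole are not independent, since a rise in any lowers the rest. Most of the neutrophil share was Cxcl1, whose own FPKM overlapped between the groups. These shares are ratios within a liver and do not depend on how libraries were scaled to each other. The ratio of Cxcl10 to Cxcl1 in a liver was 1.93, 2.59, 1.46 and 1.43 in LKO_NASH, against 0.0991, 0.230, 0.244 and 0.488 in WT_NASH. Every LKO_NASH liver had more Cxcl10 than Cxcl1, and every WT_NASH liver more Cxcl1 than Cxcl10. In the overexpression experiment the same ratio was 0.882 to 2.40 in Ad_Chrebpa_HFLMCD and 1.29 to 1.62 in Ad_GFP_HFLMCD, overlapping. These ratios were chosen after the values were seen and are given without a test.

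**Figure D3:**
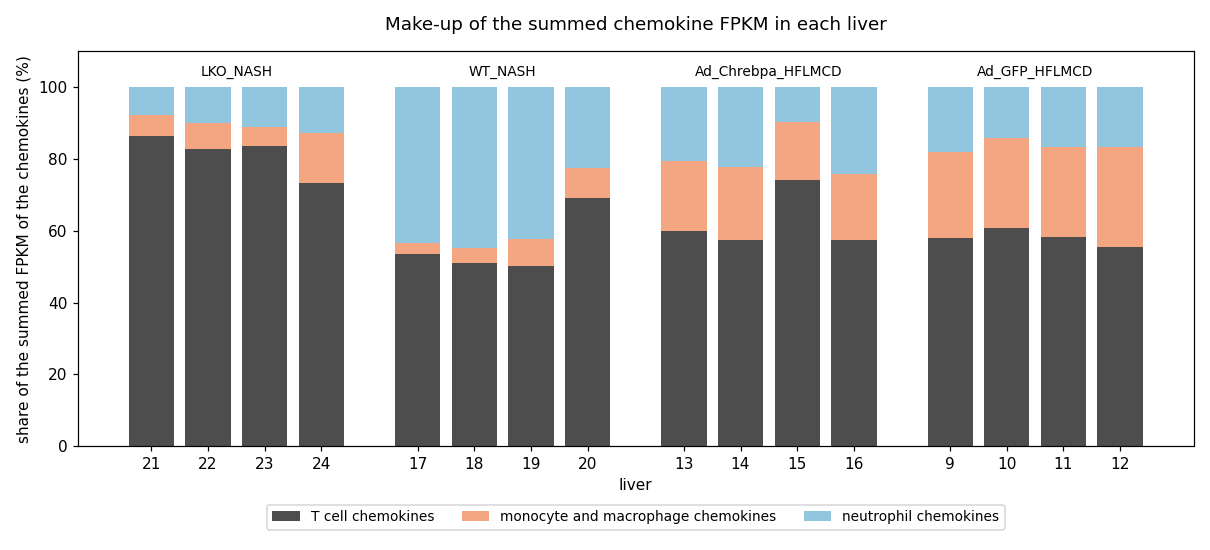
Share of the summed FPKM of the 10 chemokines (%) taken by each class in each liver, one bar a liver. Neutrophil chemokines take at most 12.7% in LKO_NASH livers and at least 22.4% in WT_NASH livers, and liver 15 has the highest T cell chemokine share of the HFLMCD livers, 74.0%.

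In the livers labelled Ad_Chrebpa_HFLMCD, the CCR2 ligands Ccl2 and Ccl7 fell against Ad_GFP_HFLMCD and no other member passed the test. edgeR called 434 of 13658 genes lower, 3.18%, and 676 higher, 4.95%, so that 60.9% of calls were higher, against 30.5% on log2(FPKM + 1). Of the 10 members 2 were called lower and 0 higher, with a median log2 fold change of 0.11 beside -0.01 over all genes tested.

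Ccl2, the chief monocyte chemokine, was at 8.90, 9.11, 11.57 and 8.90 FPKM in Ad_Chrebpa_HFLMCD, against 14.80, 19.59, 16.79 and 18.37 in Ad_GFP_HFLMCD. The groups did not overlap. The log2 fold change was -0.78 (95% interval -1.03 to -0.54, edgeR adjusted p = 0.00428), a level 0.582 times that of Ad_GFP_HFLMCD.
Ccl7 was at 1.81, 1.58, 2.46 and 1.82 FPKM in Ad_Chrebpa_HFLMCD, against 4.71, 5.86, 5.69 and 6.17 in Ad_GFP_HFLMCD. The groups stood well apart. The log2 fold change was -1.48 (95% interval -1.84 to -1.12, edgeR adjusted p = 0.00151), a level 0.359 times that of Ad_GFP_HFLMCD.
Groups without overlap, lower in Ad_Chrebpa_HFLMCD, were seen for these 2 of 10 members, beside 14.5% of all genes tested. Leaving out any 1 liver kept both calls, with log2 fold changes of -0.87 to -0.74 for Ccl2 and -1.61 to -1.39 for Ccl7. With all 16 libraries in 1 fit, in which 0.723% of genes were called lower, the call of Ccl2 was lost (-0.77, edgeR adjusted p = 0.137).

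Ccl2 and Ccl7 are neighbours on chromosome 11. Of the 20 nearest tested genes around Ccl2, 3 were called, Ccl7 lower and Cct6b and Rffl higher. On all of chromosome 11, 12.3% of tested genes were called in either direction, beside 4.95% of all genes tested called higher and 3.18% lower. Macrophage and Kupffer cell markers summed to 550 to 832 FPKM in Ad_Chrebpa_HFLMCD and 789 to 1350 in Ad_GFP_HFLMCD, with 0 of 11 called. Monocyte and recruited macrophage markers summed to 742 to 1110 FPKM in Ad_Chrebpa_HFLMCD and 786 to 1200 in Ad_GFP_HFLMCD. Of these 9 markers 1 was called higher, beside 4.95% of all genes tested. The sums of both lists overlapped between the groups. Cholangiocyte markers summed to 94.4 to 141 and 118 to 286 FPKM, with 3 of 6 called lower, beside 3.18% of all genes tested. Most of that sum was Spp1, at 88.63 to 134.87 FPKM in Ad_Chrebpa_HFLMCD and 110.04 to 271.64 in Ad_GFP_HFLMCD. Spp1 is also in the monocyte and recruited macrophage list, so these sums share a gene. The part of these markers in the Ccl2 and Ccl7 results was not tested.

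Ccl3 and Ccl4, of the same class, had higher means in Ad_Chrebpa_HFLMCD. Ccl3 was at 3.55, 4.32, 7.76 and 5.41 FPKM in Ad_Chrebpa_HFLMCD, against 3.26, 4.66, 4.42 and 3.46 in Ad_GFP_HFLMCD. Its log2 fold change was 0.48 (95% interval -0.03 to 0.99, edgeR adjusted p = 0.214), and 0.25 without liver 15.
Ccl4 was at 2.77, 4.62, 8.52 and 3.62 FPKM in Ad_Chrebpa_HFLMCD, against 4.26, 3.62, 3.33 and 3.79 in Ad_GFP_HFLMCD. Its groups overlapped, with a log2 fold change of 0.44 (95% interval -0.23 to 1.11, edgeR adjusted p = 0.385), and 0.05 without liver 15.
The expected counts of Ccl3 and Ccl4 were whole numbers in every liver, so no reads were split between them. Whether counting used the strand is not given. The ratio of Ccl2 to Ccl3 in a liver was 2.51, 2.11, 1.49 and 1.65 in Ad_Chrebpa_HFLMCD, against 4.54, 4.20, 3.80 and 5.31 in Ad_GFP_HFLMCD, without overlap. In the deletion experiment it was 1.64 to 4.45 in LKO_NASH and 2.00 to 7.27 in WT_NASH, with overlap. Ccl2 alone already separated the overexpression groups. This ratio was also chosen after the values were seen and is given without a test.

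**Figure D4:**
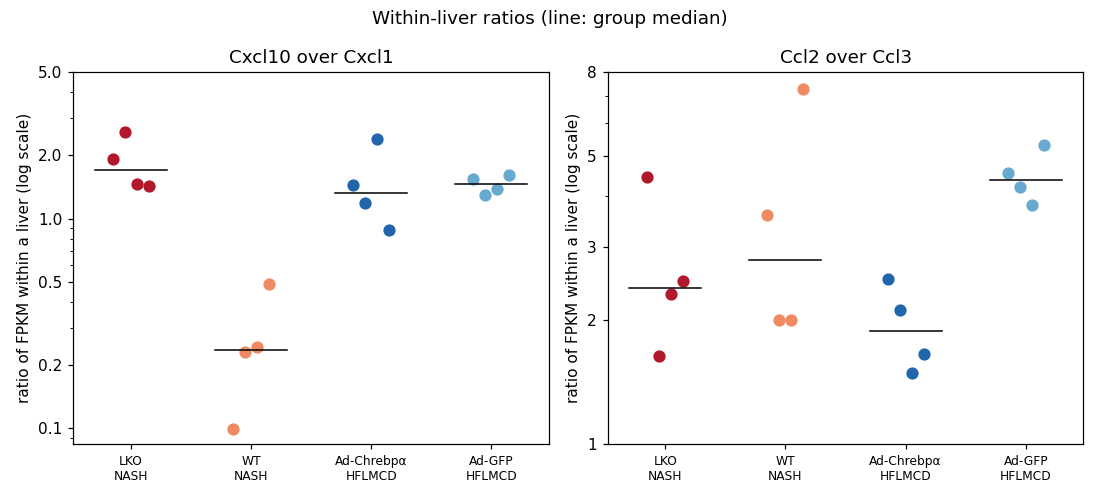
Ratios of FPKM within each liver (log axes) for Cxcl10 over Cxcl1 and Ccl2 over Ccl3, with a line at the group median. Cxcl10 over Cxcl1 separates LKO_NASH (1.43 to 2.59) from WT_NASH (0.0991 to 0.488). Ccl2 over Ccl3 separates Ad_Chrebpa_HFLMCD (1.49 to 2.51) from Ad_GFP_HFLMCD (3.80 to 5.31), as Ccl2 alone does. Both ratios were chosen after the values were seen and were not tested.

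The neutrophil chemokines were not called. Cxcl1 was at 15.01, 18.64, 14.35 and 20.55 FPKM in Ad_Chrebpa_HFLMCD, against 17.48, 16.26, 18.48 and 17.32 in Ad_GFP_HFLMCD. Its log2 fold change was 0.05 (95% interval -0.22 to 0.31, edgeR adjusted p = 0.827), and it was -0.03 on log2(FPKM + 1).
Cxcl2 was at 3.10, 2.64, 4.05 and 5.31 FPKM in Ad_Chrebpa_HFLMCD, against 3.22, 2.86, 1.77 and 1.53 in Ad_GFP_HFLMCD. Both groups spread widely, and the log2 fold change of 0.76 missed the threshold (95% interval 0.13 to 1.39, edgeR adjusted p = 0.122).

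None of the T cell chemokines was called, and for Ccl5 and Cxcl9 liver 15 of Ad_Chrebpa_HFLMCD stood far above the other livers of its group. Ccl5 was at 8.97, 10.69, 37.53 and 13.64 FPKM in Ad_Chrebpa_HFLMCD, against 12.10, 24.16, 20.06 and 10.00 in Ad_GFP_HFLMCD. Its log2 fold change was 0.16 (95% interval -0.82 to 1.14, edgeR adjusted p = 0.845), and -0.49 without liver 15.
Cxcl9 was at 10.87, 8.67, 48.62 and 14.83 FPKM in Ad_Chrebpa_HFLMCD, against 12.33, 15.10, 11.13 and 10.39 in Ad_GFP_HFLMCD. Its log2 fold change was 0.83 (95% interval -0.21 to 1.87, edgeR adjusted p = 0.293), and -0.01 without liver 15.
Cxcl10 was at 21.83, 22.14, 34.40 and 18.13 FPKM in Ad_Chrebpa_HFLMCD, against 27.17, 20.97, 25.43 and 28.07 in Ad_GFP_HFLMCD. Its groups overlapped, with a log2 fold change of -0.01 (95% interval -0.41 to 0.39, edgeR adjusted p = 0.979).
Cxcl16 was at 11.08, 13.41, 17.86 and 14.73 FPKM in Ad_Chrebpa_HFLMCD, against 14.38, 21.55, 13.63 and 14.81 in Ad_GFP_HFLMCD. Its groups overlapped, with a log2 fold change of -0.10 (95% interval -0.44 to 0.24, edgeR adjusted p = 0.729).
Liver 15 was highest of its group for 8 of 10 members and lowest for Cxcl1. T and NK cell markers summed to 31.8 FPKM in liver 15, against 9.22 to 13.7 in the other Ad_Chrebpa_HFLMCD livers and 10.9 to 23.1 in Ad_GFP_HFLMCD, and B and plasma cell markers summed to 10.4 to 22.0 FPKM in Ad_Chrebpa_HFLMCD and 5.43 to 7.83 in Ad_GFP_HFLMCD, without overlap. Their part in the levels of Ccl5 and Cxcl9 was not tested.

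The receptors of these chemokines were described in the same fits. In the deletion experiment 0 of 12 tested receptors were called, with a median log2 fold change of 0.40. Cxcr3, the receptor for Cxcl9 and Cxcl10, had a log2 fold change of 1.46 (95% interval -0.02 to 2.95, edgeR adjusted p = 0.371), and Ccr2 0.97 (95% interval -0.05 to 1.99, edgeR adjusted p = 0.379). Cxcr2 at 0.31 and Ackr1, an endothelial receptor that takes up chemokines without signalling, at 0.38 were not called, and Ccr1 and Cxcr6 were too low to test. Cxcr6 had means of 0.272 FPKM in LKO_NASH and 0.0875 in WT_NASH, without overlap.

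In the overexpression experiment 1 of 17 tested receptors was called, beside 4.95% of all genes called higher and 3.18% lower. Ccr3, known from eosinophils, fell, with a log2 fold change of -1.70 (edgeR adjusted p = 0.0388), at means of 0.0625 FPKM in Ad_Chrebpa_HFLMCD and 0.228 in Ad_GFP_HFLMCD, and its call was lost without any 1 of livers 9, 10, 11, 12, 14, 15 and 16 (-1.83 to -1.47). Ccr2, the receptor of Ccl2 and Ccl7, was at -0.16 (95% interval -0.45 to 0.13, edgeR adjusted p = 0.463). Ccr1 at 0.24, Cxcr2 at 0.15, Cxcr3 at 0.23, Cxcr6 at 0.40 and Ackr1 at -0.15 were not called either.

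Other genes of the pathway are listed by experiment. By edgeR, in the deletion experiment 0 of 15 other chemokines and 0 of 17 NF-kB and cytokine genes were called. The same fit called 0 of 12 interferon gamma genes and 0 of 7 shedding and glycosaminoglycan partners. Of the interferon gamma genes 9 of 12 were positive, with a median log2 fold change of 0.52, and 4 lay higher in LKO_NASH without overlap, beside 6.93% of all genes tested. Of the NF-kB genes 10 of 17 were positive, with a median of 0.17. Higher FPKM in LKO_NASH without overlap was seen for 5 of them, beside the same 6.93%. Among them were Nfkb2, an NF-kB subunit, and Vcam1, an adhesion molecule for leukocytes, which DESeq2 called (log2 fold change 0.85, adjusted p = 0.0301, and 0.73, adjusted p = 0.0275). Both were named after their values were seen, and DESeq2 called no gene of the other 3 lists.
In the overexpression experiment 1 of 17 other chemokines rose, Cxcl5, a further CXCR2 ligand (log2 fold change 0.77, edgeR adjusted p = 0.0378). It was at means of 1.51 FPKM in Ad_Chrebpa_HFLMCD and 0.935 in Ad_GFP_HFLMCD, without overlap. Of 18 NF-kB and cytokine genes 2 rose, both members of the IκB family. These were Nfkbiz at 0.42 (edgeR adjusted p = 0.00602) and Nfkbia at 0.33 (edgeR adjusted p = 0.0303). Of 7 shedding and glycosaminoglycan partners 1 rose, the chemokine-binding heparan sulfate proteoglycan Sdc4 at 0.62 (edgeR adjusted p = 0.0183). None of 12 interferon gamma genes was called, with a median of 0.17. Over all genes tested in this experiment, edgeR called 4.95% higher and 3.18% lower. The call of Cxcl5 was lost without any 1 of livers 9, 11, 12, 13, 14, 15 and 16, that of Nfkbia without livers 10, 11, 12, 15 or 16, and that of Sdc4 without livers 12, 13 or 16. With all 16 libraries in 1 fit Cxcl5, Nfkbia and Sdc4 were not called (edgeR adjusted p = 0.275, 0.102 and 0.0509). Of 16 alternatives in processing or livers, 9 lost the Nfkbia call. Nfkbiz kept its call when any 1 liver was left out.

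The members also varied between livers of a group. In WT_NASH liver 17 was lowest for 10 of 10 members and at 0 for 3 of them, and in LKO_NASH liver 24 was highest for 7 of 10. The ratio of the highest to the lowest liver was 6.94 for Cxcl10 in WT_NASH and 1.35 in LKO_NASH. In Ad_GFP_HFLMCD liver 10 was highest for 5 of 10 members, and Cxcl1 varied least there, from 16.26 to 18.48 FPKM. Over the 16 livers, deviations from the group mean of log2(FPKM + 1) were compared between Ccl2, Cxcl1 or Cxcl10 and 10920 genes with a mean of at least 1 FPKM. Those of Ccl2 were most like Serpinh1 (Pearson r = 0.94), a collagen chaperone, Col3a1 (0.91), a fibrillar collagen, Clta (0.91), Cd209c (0.90) and Capg (0.89). Those of Cxcl1 were most like Echdc2 (0.90), Cox18 (0.88), Acad10 (0.86), Naa38 (0.86) and Cfd (0.85). Those of Cxcl10 were most like Ube2l6 (0.86), an interferon-induced enzyme, Grcc10 (0.85), Scp2 (0.83), Mrpl41 (0.80) and Clstn3 (0.79). Both genes of a pair share a library and its scaling, and the top 5 of so many genes are high by selection.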

How the data were processed

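RNA of 16 mouse livers was sequenced, 1 library each. Per the file headers, the deposited tables give expected counts (estimated fragments per gene, not normalised) and FPKM as calculated by the authors. HISAT2 is named in the submitters' processing notes. No counter, genome build, annotation or strand setting is given in the sources used here. Genes below 0.01 FPKM were not listed and were taken as 0. Of 17436 entries, 26 named by a transcript were summed into their gene, and 17371 of 17410 genes matched a GRCm38.p6 table used for gene order.

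Rounded expected counts entered the quasi-likelihood F test of edgeR 4.0.16 (R 4.3.3, TMM scaling, filterByExpr, two-sided, Benjamini-Hochberg adjustment over all genes tested, called below an adjusted p of 0.05), in 1 fit of 8 libraries per comparison. Where no tool is named, a fold change is edgeR's. The test was tested on simulated data. DESeq2 1.42.0 and limma 3.58.1 (voom, or log2(FPKM + 1) and log2(FPKM + 0.1) for genes with a mean of at least 0.1 FPKM), other scaling, no filter, 1 fit of 16 libraries and leaving out each liver were alternatives. Decimals in the counts of Cxcl2, Cxcl9 and Cxcl16 mean that the authors split reads shared with other genes. Libraries of a group differed by a chi-square of 17.2 to 240 per degree of freedom, so each was counted as 1 sample. The labels number the livers without stating that each is a separate animal, so p-values measure only how these samples spread, which may be technical. The members, lists and classes were chosen with earlier results of these data known. Named genes were the 10 members, 6 of their receptors (1 further is not reported here), called genes of the pathway lists (up to 6 each) and the 5 genes most like Ccl2, Cxcl1 and Cxcl10. Promoters are from RefSeq, found for 5 of 10 members.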

Additional observations from a re-analysis of the deposited data

Results flagged for a closer look

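Each of 40 groups of 4 livers (10 chemokines in 4 groups) was examined for a liver far from the other 3, for which chance alone gives about 1 in 20, and 4 were found. In Ad_Chrebpa_HFLMCD liver 15 stood above the other livers for Cxcl9 at 48.62 FPKM, for Ccl5 at 37.53 FPKM and for Ccl2 at 11.57 FPKM. The gap to the nearest liver took 0.846, 0.836 and 0.921 of the group's whole range, past Dixon's 95% critical value for 4 samples. Without liver 15 the log2 fold changes against Ad_GFP_HFLMCD were -0.01 for Cxcl9 and -0.49 for Ccl5. In Ad_GFP_HFLMCD liver 10 stood above the others for Cxcl16 at 21.55 FPKM, with a gap of 0.851 of the range. Liver 10 also had the highest sums of macrophage (1350 FPKM), neutrophil (56.1 FPKM), T and NK cell (23.1 FPKM) and stellate cell (464 FPKM) markers of its group. What sets these livers apart was not tested.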

How the results depend on the processing

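Over 26 member results and 416 alternatives, 395 kept their direction and their side of the threshold, 1 lost its call (Ccl2, above), 4 gained one and 16 changed sign. The 4 were LKO_NASH results, by DESeq2 or the fit of 16 libraries. The sign changes were all in Ad_Chrebpa_HFLMCD against Ad_GFP_HFLMCD, among values not called. There Cxcl1 was -0.03 and Ccl5 -0.05 on log2(FPKM + 1) with or without the filter, and -0.03 and -0.06 on log2(FPKM + 0.1). Leaving out 1 liver gave -0.49 to 0.38 for Ccl5, -0.01 to 1.08 for Cxcl9, -0.22 to 0.10 for Cxcl10, -0.05 to 0.13 for Cxcl1 and -0.21 to 0.05 for Cxcl16. The receptor Cxcr6, which is not a member and is outside these counts, spanned -0.01 to 0.61.

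For LKO_NASH against WT_NASH, DESeq2 called 90 genes higher and 68 lower with 3 chemokines higher, and 1 fit of 16 libraries 86 and 66 with 1 chemokine. Leaving out 1 liver gave 0 to 166 higher and 0 to 254 lower. For Ad_Chrebpa_HFLMCD against Ad_GFP_HFLMCD the calls were 1102 higher and 842 lower by DESeq2, 438 and 997 on log2(FPKM + 1), 447 and 1016 on log2(FPKM + 0.1), 360 and 825 without a filter on FPKM, and 236 and 100, with 1 chemokine lower, in 1 fit of 16 libraries. Leaving out 1 liver gave 263 to 937 higher and 137 to 785 lower, the lowest without liver 16 and the highest without liver 14. For WT_NASH against Ad_GFP_HFLMCD they were 755 and 9898 on log2(FPKM + 1), 758 and 9919 on log2(FPKM + 0.1), and 766 and 10374 without a filter. The cause was not tested. No paired analysis was possible because the liver numbers are not shared between groups. Counts were low for Ccl3, Ccl4, Ccl7 and Cxcl2 in the NASH livers, at 9 to 44 summed over a group.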
